A study of Mus musculus with 9 samples.

Results

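The DNA replication machinery was followed as 47 genes, chosen by gene symbol with earlier results of these data known. Each was found on 1 row of a deposited table of 18094 genes. They fell into 11 role groups: origin recognition and licensing, the MCM helicase subunits, helicase activation, primase and polymerases, the sliding clamp and its loader, single-strand binding, Okazaki fragment processing, deoxynucleotide supply, fork protection, chromatin assembly with maintenance methylation, and the transcription factor E2f1. All 47 passed the filter on low counts that left 15277 genes for testing. RNA was sequenced from cardiac endothelium, cells pulled from fresh heart tissue with magnetic microbeads, in 3 groups of 3 libraries. The groups were BPH/2J mice of 22 weeks, BPH/2J mice of 4 weeks and BPN/3J mice of 22 weeks. BPH/2J is an inbred line with hypertension and BPN/3J the normotensive line bred beside it. Each pressure state was represented by a single line, so line and blood pressure cannot be told apart. No BPN/3J group of 4 weeks was analysed here, so the 4-week BPH/2J and 22-week BPN/3J groups differed in both line and age. Age was compared within BPH/2J only. Growth in general and changes particular to the hypertensive line therefore cannot be told apart in the age comparison. The labels do not say whether the libraries of a group came from separate mice, so p-values reflect how much these libraries vary, and that variation could be purely technical.

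DNA replication starts at origins marked by the origin recognition complex, where CDC6 and CDT1 load rings of the MCM helicase before S phase. CDC45 and the GINS complex then join the helicase, and primase, DNA polymerases, the PCNA clamp and its loader RFC, the RPA single-strand binding complex and enzymes that make deoxynucleotides copy the DNA behind it. Many of these genes are transcribed under E2F factors as cells enter S phase, and their transcripts are low in resting cells. Endothelial cells of the growing heart divide, whereas those of the adult heart rarely do.

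Promoter sequence is shown for members picked by their age difference, described below, and in part by an E2F-type motif match. The windows are thus not a sample of the members that fell most. Each window is a stretch of 100 bases before a transcription start, taken from the RefSeq promoter table of build GRCm38.p6, 5′ to 3′ on the gene's own strand, with motif matches in capitals. The first 5 windows belong to the members with the strongest decline with age among those with a match wholly upstream of the start. Mcm10, Cdc45, Tk1, E2f1, Rrm2, Chaf1a and Mcm2 declined more than Orc1, by log2 differences of -2.74 to -1.48. They held no match, and their windows are not shown. Clspn also declined more than Orc1, at -2.43, and its only match lay after the start. Pole, Gins2 and Gins1 did so too, at -2.34, -2.08 and -1.72, but had no promoter entry.
Uhrf1, chr17:56304082-56304181, plus strand: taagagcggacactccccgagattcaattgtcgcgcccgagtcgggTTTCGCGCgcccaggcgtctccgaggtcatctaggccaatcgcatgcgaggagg
Cdc6, chr11:98907967-98908066, plus strand: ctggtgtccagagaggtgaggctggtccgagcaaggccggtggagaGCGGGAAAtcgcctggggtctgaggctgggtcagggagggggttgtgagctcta
Mcm6, chr1:128359731-128359830, minus strand: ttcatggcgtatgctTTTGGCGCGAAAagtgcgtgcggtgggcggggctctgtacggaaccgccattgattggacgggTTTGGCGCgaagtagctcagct
Mcm5, chr8:75109312-75109411, plus strand: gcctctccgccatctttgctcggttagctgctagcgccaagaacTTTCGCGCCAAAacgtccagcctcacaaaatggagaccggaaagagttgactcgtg
Orc1, chr4:108579354-108579453, plus strand: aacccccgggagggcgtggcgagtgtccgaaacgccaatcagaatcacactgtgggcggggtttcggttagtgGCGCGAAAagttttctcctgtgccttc
Ticrr, whose age difference was the strongest of all 47 members, had no match in its window.
Ticrr, chr7:79660096-79660195, plus strand: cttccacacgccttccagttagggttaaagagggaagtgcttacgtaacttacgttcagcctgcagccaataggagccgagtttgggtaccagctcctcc
Timeless, Pola2 and Rpa3 are the members with a promoter entry that were not called different with age, and no match was found in their windows either.
Timeless, chr10:128237966-128238065, plus strand: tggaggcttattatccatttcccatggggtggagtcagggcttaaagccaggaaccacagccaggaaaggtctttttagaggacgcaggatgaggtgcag
Pola2, chr19:5964207-5964306, minus strand: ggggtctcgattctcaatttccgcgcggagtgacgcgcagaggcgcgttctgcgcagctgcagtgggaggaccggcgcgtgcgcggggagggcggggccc
Rpa3, chr6:8259142-8259241, minus strand: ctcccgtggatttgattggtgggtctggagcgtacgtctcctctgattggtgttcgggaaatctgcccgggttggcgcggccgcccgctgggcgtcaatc
The strings searched on both strands were TTTCCCGC, TTTCGCGC, TTTGCCGC and TTTGGCGC, within a window of 250 bases before and 50 bases after each start. Some matches overlap, as a forward and a reverse match share bases in Mcm5 and Mcm6. A promoter was listed for 39 of the 47 members. Of these, 16 held a match (41.0%), against 704 of 27025 genes in the whole table (2.60%). The whole promoter table also holds genes beyond the 15277 tested here, whereas all members were tested, so the sets are unlike. Counted by promoter, 34.0% of the members' 47 promoters and 2.26% of all 32851 promoters held 1. The 16 members with a match had a median log2 age difference of -1.07, with a range from -2.89 to -0.41. The 23 without had a median of -0.86 and a wider range, from -3.53 to 0.11. These matches describe the letters in the windows and do not identify sites of binding.

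Total counts ran from 28806840 to 32913813 per library. A count of 0 at that depth leaves room for up to 3 counts, or 0.0921 to 0.105 CPM, a floor for counting error only. The lowest count of any member was 9 in BPN/3J replicate 1 and 41 in 4-week BPH/2J replicate 3, so no member was at that floor. Replicates of a group differed by more than counting noise, with a chi-square per degree of freedom between 6.34 and 52.2. In 4-week BPH/2J, replicate 1 gave 52.2 against replicate 2 and 45.4 against replicate 3, while replicates 2 and 3 gave 6.34. In the other groups the values lay between 10.6 and 23.5. Endothelial markers were abundant in all groups. Their 12 genes summed to 15437 to 15779.6 CPM in 22-week BPH/2J, 13892 to 14898 CPM in 4-week BPH/2J and 13014 to 13695 CPM in BPN/3J, and Cdh5, the endothelial cadherin, was the most abundant of them. Within groups the libraries were not even for the members. Replicate 2 was the highest 22-week BPH/2J library for 34 of 47 members, and replicate 2 was the lowest 4-week BPH/2J library for 41. The 4-week replicate 1, highest for 32 members, also had the largest mitochondrial share of its group, 2.63% against 1.19% and 1.33%.

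With age in the hypertensive line, the replication genes fell almost as a whole. Of 47 members, 42 were lower in 22-week than in 4-week BPH/2J, none was higher and 5 were not called, by edgeR's quasi-likelihood test with Benjamini-Hochberg adjustment over all 15277 genes at 0.05. The higher count was also 0 at an unadjusted p under 0.05, with DESeq2 and with limma-voom. Among all tested genes 41.0% were called in this comparison, 21.1% lower and 19.9% higher. The median log2 difference of the members was -0.86, with quartiles of -1.79 and -0.59, against a median of 0.01 over all genes. In 23 members the difference exceeded 1 on the log2 scale and in 10 it exceeded 2. The same 42 members had every 22-week library below every 4-week library, where 25.7% of all genes were ordered that way, 25.5% the other way and 51.2% either way. In these bulk samples, fewer cells of a type and less RNA per cell cannot be told apart. In the authors' deposited table the same 42 members passed a false discovery rate of 0.05, with a sign that runs the other way since it is 4-week over 22-week.

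**Figure D1:**
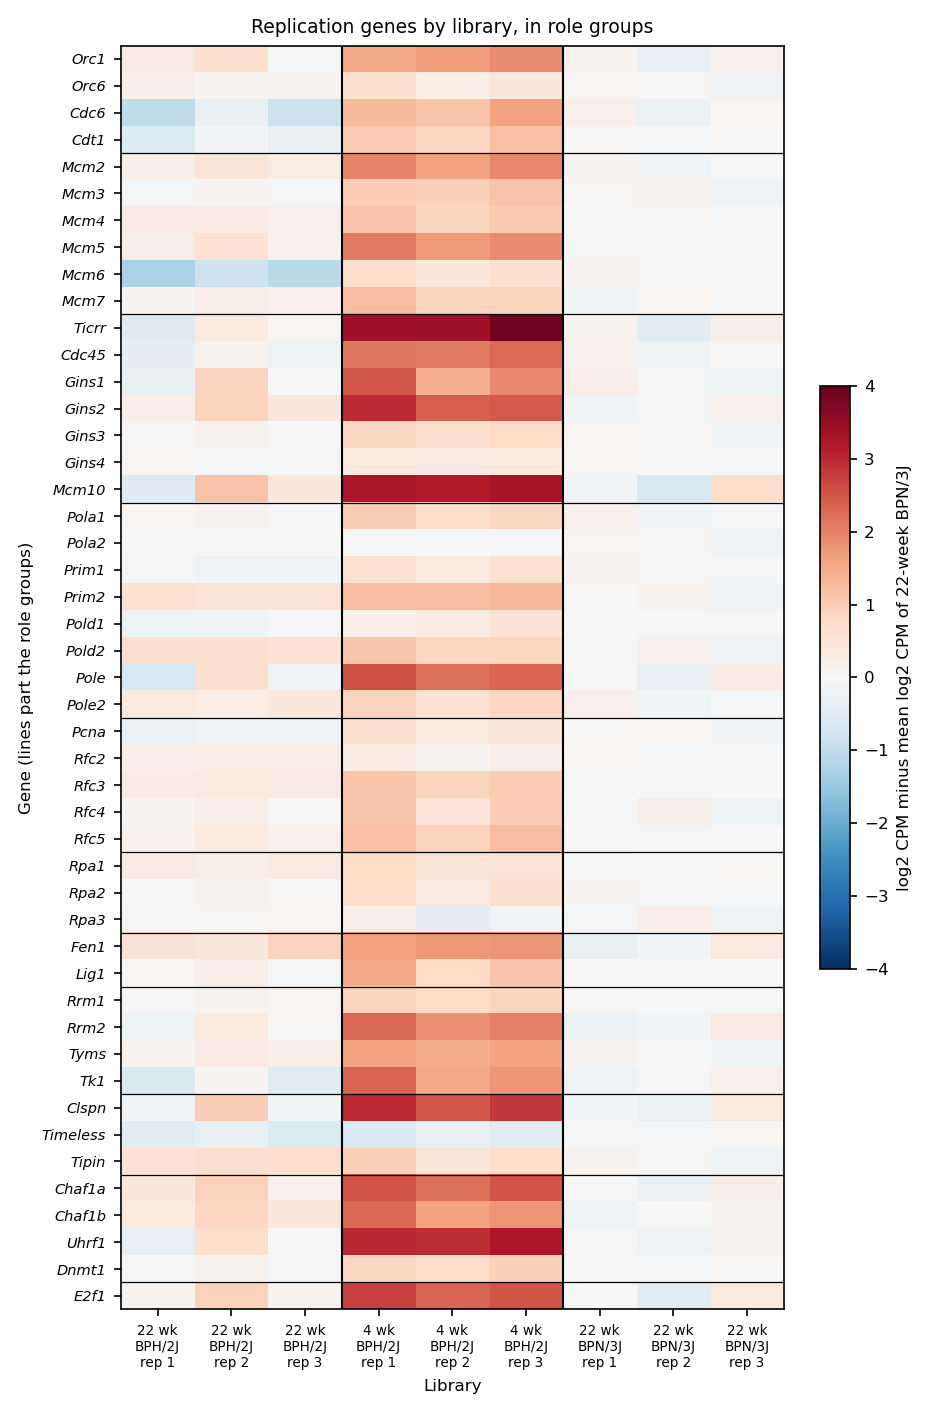
Level of each of the 47 replication genes in each of the 9 libraries, as log2 CPM minus the mean log2 CPM of the 22-week BPN/3J libraries, in role groups. The 4-week BPH/2J columns stand above the other 6 columns for nearly all genes. Timeless, Pola2 and Rpa3 do not follow them, and the BPH/2J columns of both ages overlap for Rfc2 and Tipin.

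The origin licensing genes were lower at 22 weeks in all 4 cases, with a median log2 difference of -1.35. Cdc6, the ATPase that helps load the MCM ring, had 3.01, 4.95 and 3.38 CPM in 22-week BPH/2J, 15.1, 13.5 and 18.9 CPM in 4-week BPH/2J and 7.09, 5.07 and 6.42 CPM in BPN/3J. All 22-week BPH/2J libraries lay below both other groups, and the 4-week BPH/2J libraries lay above both. The age difference of Cdc6 was 4.18-fold (log2 difference -2.06 ± 0.20, adjusted p = 4.52e-05). Cdt1, its partner in loading, had 7.55, 10.2 and 9.02 CPM in 22-week BPH/2J, against 22.3, 19.8 and 25.1 CPM in 4-week BPH/2J, and had the smallest adjusted p of the 4 (log2 difference -1.33 ± 0.12, adjusted p = 3.51e-05). No 22-week library of Cdt1 reached the lowest 4-week library. Orc1, the ATPase subunit of the origin recognition complex, averaged 2.15 ± 0.498 CPM in 22-week BPH/2J, 5.55 ± 0.627 in 4-week BPH/2J and 1.71 ± 0.313 in BPN/3J (mean ± SD, n = 3 per group, as in all CPM values given with ±), with a log2 difference of -1.37 ± 0.20. Orc6, the smallest subunit of the complex, averaged 19.1 ± 1.04 CPM in 22-week BPH/2J, 23.7 ± 2.81 in 4-week BPH/2J and 17.1 ± 1.41 in BPN/3J and changed least (log2 difference -0.31 ± 0.10, adjusted p = 0.0289). Its groups did not overlap, yet its call was lost in the 4 fits that left out 22-week replicate 2 or 3 or 4-week replicate 1 or 3, where the adjusted p lay between 0.0663 and 0.0944.

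All 6 subunits of the MCM ring, the core of the replicative helicase, were lower at 22 weeks, with a median log2 difference of -1.27. The ring holds 1 copy of each subunit, and the log2 differences of their transcripts ran from -1.65 to -0.73. Mcm6 had 23.7, 32.6 and 27.2 CPM in 22-week BPH/2J, 93.3, 78.3 and 89.9 CPM in 4-week BPH/2J and 61.7, 54.1 and 56.5 CPM in BPN/3J. Its 3 groups were fully separated, with BPN/3J between the BPH/2J ages. Mcm6 showed the largest age difference of the 6 (log2 difference -1.65 ± 0.11, adjusted p = 1.16e-05). Mcm7 showed the largest adjusted p of the 6, with 30.0, 34.2 and 32.2 CPM in 22-week BPH/2J, 64.9, 51.7 and 53.3 CPM in 4-week BPH/2J and 25.8, 29.6 and 28.4 CPM in BPN/3J (log2 difference -0.82 ± 0.10, adjusted p = 0.000115). Its 22-week and 4-week BPH/2J libraries did not overlap. On the CPM scale Mcm5 averaged 27.6 ± 4.52 CPM in 22-week BPH/2J, 81.8 ± 10.98 in 4-week BPH/2J and 21.8 ± 0.690 in BPN/3J, a log2 age difference of -1.56 ± 0.12. Mcm2 averaged 24.2 ± 2.48 CPM in 22-week BPH/2J, 67.7 ± 9.01 in 4-week BPH/2J and 19.0 ± 1.51 in BPN/3J, a log2 age difference of -1.48 ± 0.11. The age differences of Mcm3 and Mcm4 were -1.05 ± 0.08 and -0.73 ± 0.07 on the log2 scale.

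Per gene length, in RPKM computed from scaled CPM, the 6 subunits lay within a range of 6.38 to 16.0 RPKM in 22-week BPH/2J, 12.8 to 33.3 RPKM in 4-week BPH/2J and 5.63 to 16.2 RPKM in BPN/3J. Mcm3 was the most abundant subunit in every group, at 16.0 ± 1.16 RPKM in 22-week BPH/2J, 33.3 ± 1.87 in 4-week BPH/2J and 16.2 ± 1.41 in BPN/3J. Mcm6 changed place in the order: it was the lowest of the 6 in 22-week BPH/2J at 6.38 ± 1.04 RPKM, whereas in BPN/3J it was the second highest at 13.2 ± 0.892 RPKM. In 22-week BPH/2J its level overlapped within the SD with those of Mcm2, at 7.18 ± 0.736 RPKM, and Mcm7, at 7.26 ± 0.472 RPKM.

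**Figure D2:**
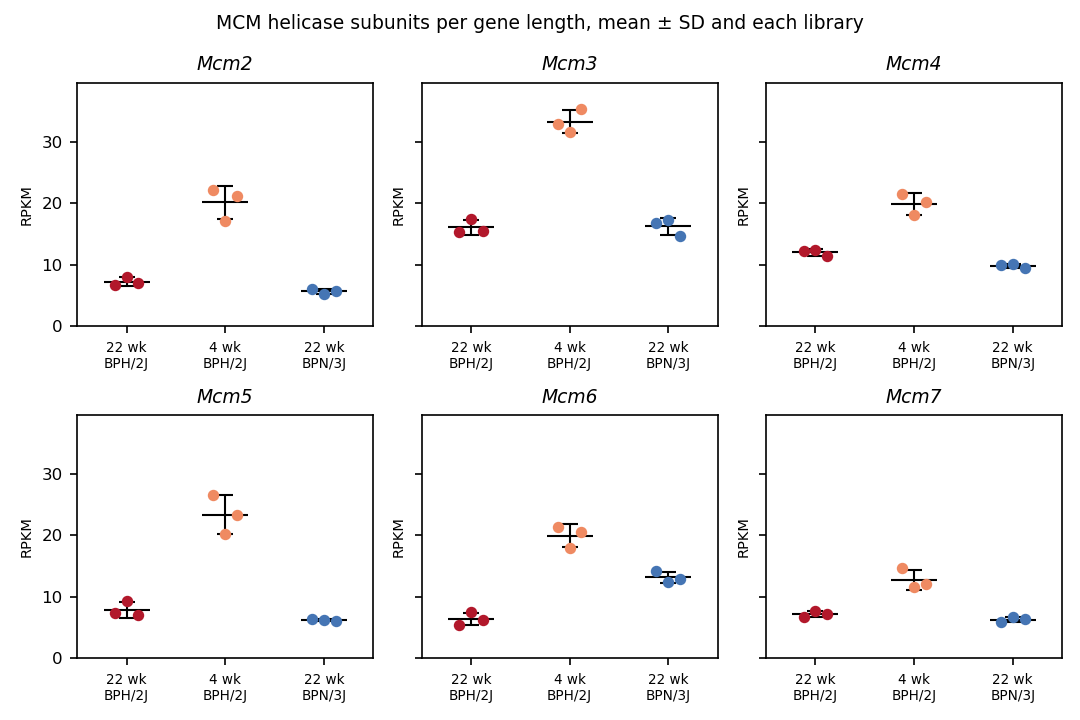
Level per gene length (RPKM) of the 6 MCM helicase subunits in each library, with the mean and SD of each group of 3. All 6 subunits are highest in 4-week BPH/2J, and Mcm6 is lower in 22-week BPH/2J, at 6.38 RPKM, than in BPN/3J, at 13.2 RPKM.

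The genes that switch the loaded helicase on showed some of the largest age differences, all 7 lower at 22 weeks with a median of -2.08. Ticrr, which brings CDC45 to origins after phosphorylation by S-phase kinases, had 0.324, 0.611 and 0.483 CPM in 22-week BPH/2J, 4.76, 4.89 and 6.90 CPM in 4-week BPH/2J and 0.506, 0.347 and 0.561 CPM in BPN/3J. In counts that was 10, 19 and 15 in 22-week BPH/2J, 146, 142 and 225 reads in 4-week BPH/2J, and 15, 10 and 16 in BPN/3J. The groups of the same age in both lines overlapped while the 4-week libraries stood 11.6-fold above the 22-week BPH/2J libraries (log2 difference -3.53 ± 0.27, adjusted p = 1.49e-05). Mcm10, which helps the helicase start unwinding, had 0.778, 2.44 and 1.48 CPM in 22-week BPH/2J, against 10.7, 9.96 and 10.99 CPM in 4-week BPH/2J (log2 difference -2.74 ± 0.34). Its 22-week replicate 2 was above the other 22-week libraries but still far under every 4-week library. Cdc45, the helicase cofactor itself, had 2.59, 3.70 and 2.90 CPM in 22-week BPH/2J, 14.5, 13.9 and 15.9 CPM in 4-week BPH/2J and 3.71, 2.88 and 3.44 CPM in BPN/3J. It had the smallest adjusted p of the group (log2 difference -2.27 ± 0.15, adjusted p = 1.1e-05), and again the 22-week libraries of both lines overlapped.

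The 4 subunits of the GINS complex, which sit in the active helicase in equal number, split into a pair with large and a pair with small age differences. Gins1 averaged 1.07 ± 0.496 CPM in 22-week BPH/2J, against 3.55 ± 1.27 in 4-week BPH/2J (log2 difference -1.72 ± 0.34) and Gins2 1.91 ± 0.446 CPM in 22-week BPH/2J, against 8.12 ± 1.90 in 4-week BPH/2J (log2 difference -2.08 ± 0.21). Gins3 averaged 6.61 ± 0.352 CPM in 22-week BPH/2J, against 10.7 ± 0.781 in 4-week BPH/2J (log2 difference -0.69 ± 0.11) and Gins4 11.7 ± 0.515 CPM in 22-week BPH/2J, against 15.1 ± 0.303 in 4-week BPH/2J (log2 difference -0.37 ± 0.08, adjusted p = 0.00484). Per gene length in BPN/3J, Gins4 and Gins3 were the more abundant pair, at 8.59 ± 0.487 and 2.63 ± 0.179 RPKM, against 0.320 ± 0.0341 RPKM for Gins2 and 0.583 ± 0.0950 RPKM for Gins1. Exons of Gins2 overlap those of Gse1 on the opposite strand over 67.3% of their length in the GENCODE M21 annotation, and Gse1 averaged 42.3 CPM. Whether the reads were counted by strand is not given in the sources used here, so reads of both genes cannot be told apart.

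Among primase and polymerase genes, 7 of 8 were lower at 22 weeks, with a median of -0.60 and a wide range. Pole, the catalytic subunit of the leading-strand polymerase epsilon, had 3.50, 8.72 and 4.93 CPM in 22-week BPH/2J, 32.9, 25.9 and 28.4 CPM in 4-week BPH/2J and 5.67, 4.41 and 6.98 CPM in BPN/3J. Every 4-week library lay above every other library, and the age difference was 5.08-fold (log2 difference -2.34 ± 0.27, adjusted p = 0.000112). Its partner subunit Pole2 averaged 9.13 ± 0.537 CPM in 22-week BPH/2J, against 12.2 ± 1.19 in 4-week BPH/2J, a far smaller log2 difference of -0.41 ± 0.12. The difference was uneven within polymerase alpha too. Pola1, its catalytic subunit, averaged 14.6 ± 0.652 CPM in 22-week BPH/2J, 24.8 ± 2.31 in 4-week BPH/2J and 13.8 ± 1.56 in BPN/3J (log2 difference -0.76 ± 0.10). Pola2, its regulatory subunit, had 86.1, 84.3 and 84.4 CPM in 22-week BPH/2J, 85.8, 82.3 and 79.5 CPM in 4-week BPH/2J and 89.6, 87.5 and 77.0 CPM in BPN/3J, so that all 3 groups overlapped (log2 difference 0.04 ± 0.06, adjusted p = 0.635). Per gene length in BPN/3J, Pola2 stood at 29.5 ± 2.35 RPKM and Pola1 at 1.57 ± 0.176 RPKM. The primase subunits Prim1 and Prim2 changed by -0.69 ± 0.09 and -0.71 ± 0.10 on the log2 scale. For polymerase delta, the catalytic Pold1 changed by -0.52 ± 0.08 and the accessory Pold2 by -0.33 ± 0.10. The calls of Pold2 and Pole2 were lost, together or singly, in 5 of the fits that left out 1 library of 22-week or 4-week BPH/2J.

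PCNA is the ring that holds polymerases on DNA, and RFC is the complex that loads it. Pcna was the most abundant member per gene length in all 3 groups, at 48.1 ± 1.99 RPKM in 22-week BPH/2J, 77.3 ± 7.67 in 4-week BPH/2J and 55.1 ± 3.33 in BPN/3J. It had 110.4, 119.9 and 116 CPM in 22-week BPH/2J, 207, 173 and 177 CPM in 4-week BPH/2J and 135, 138 and 123 CPM in BPN/3J. Its 4-week libraries were above the rest, and its age difference was 1.61-fold (log2 difference -0.68 ± 0.08, adjusted p = 0.000101). A processed pseudogene of Pcna, Pcna-ps2 on chromosome 19, had its own row with 406, 429 and 381 counts in 22-week BPH/2J, 691, 567 and 697 counts in 4-week BPH/2J, and 0, 3 and 0 in BPN/3J. Reads that fit both the gene and such a copy can be assigned to either, so the level of Pcna between the lines is uncertain. The loader subunits Rfc3, Rfc4 and Rfc5 were lower at 22 weeks, with log2 differences of -0.65 ± 0.09, -0.79 ± 0.17 and -0.86 ± 0.11. Rfc2 had 35.7, 36.6 and 36.7 CPM in 22-week BPH/2J, 38.0, 32.0 and 35.8 CPM in 4-week BPH/2J and 31.5, 28.5 and 29.1 CPM in BPN/3J. Its BPH/2J groups of both ages overlapped (log2 difference 0.04 ± 0.07, adjusted p = 0.675). Exons of Rfc4 overlap those of Eif4a2 on the opposite strand over 12.7% of their length, and Eif4a2 averaged 495 CPM. For Rfc5 the opposite-strand overlap is 10.7%, with Wsb2 at 77.4 CPM, and for Rfc2 15.1%, with Lat2 at 4.71 CPM. The levels of these 3 loader genes carry the same uncertainty as that of Gins2, over a smaller part of their length. So do those of other members with an opposite-strand overlap. Among them were Orc6 with Vps35 (6.93%, 144 CPM) and Cdc45 with Ufd1 (5.96%, 62.6 CPM). Mcm7 overlaps Ap4m1 (7.25%, 19.5 CPM) and Lig1 overlaps Zswim9 (5.79%, 14.2 CPM).

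RPA coats single-stranded DNA at the fork. Rpa2, its middle subunit, averaged 17.4 ± 1.00 CPM in 22-week BPH/2J, 24.6 ± 3.34 in 4-week BPH/2J and 16.7 ± 1.15 in BPN/3J (log2 difference -0.51 ± 0.11, adjusted p = 0.00354). Rpa1, the large subunit, averaged 51.2 ± 1.23 CPM in 22-week BPH/2J, against 63.2 ± 6.16 in 4-week BPH/2J (log2 difference -0.30 ± 0.07). Rpa3, the small subunit, had 10.2, 10.3 and 10.5 CPM in 22-week BPH/2J, 12.1, 7.72 and 8.87 CPM in 4-week BPH/2J and 9.41, 11.9 and 8.84 CPM in BPN/3J, with all groups overlapping (log2 difference 0.11 ± 0.17, adjusted p = 0.622). Lagging-strand fragments are trimmed by the flap nuclease FEN1 and joined by DNA ligase I. Lig1 averaged 22.2 ± 2.40 CPM in 22-week BPH/2J, against 46.96 ± 11.9 in 4-week BPH/2J (log2 difference -1.08 ± 0.15, adjusted p = 0.00039). Fen1 averaged 0.591 ± 0.103 CPM in 22-week BPH/2J, against 1.21 ± 0.0629 in 4-week BPH/2J (log2 difference -1.03 ± 0.24, adjusted p = 0.00594) and was counted 17, 16 and 22 times in 22-week BPH/2J and 35, 36 and 41 times in 4-week BPH/2J. The ages did not overlap for either gene. In the GENCODE M21 annotation an antisense gene, Gm10143, covers 78.8% of the exonic length of Fen1 and averaged 0.315 CPM. Tmem258, also on the opposite strand, overlaps 5.37% of that length and averaged 19.7 CPM. The low counts of Fen1 are therefore uncertain.

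The genes that supply deoxynucleotides were lower at 22 weeks in all 4 cases, with a median of -1.65. Tyms, the thymidylate synthase, had 12.3, 14.1 and 13.2 CPM in 22-week BPH/2J, 34.6, 31.3 and 34.5 CPM in 4-week BPH/2J and 12.1, 11.2 and 10.5 CPM in BPN/3J. Its libraries were tight within each group, and it had the smallest adjusted p of this group (log2 difference -1.34 ± 0.08, adjusted p = 8.17e-06). Tk1, the cytosolic thymidine kinase, had 4.31, 6.95 and 4.61 CPM in 22-week BPH/2J, against 32.4, 18.8 and 22.2 CPM in 4-week BPH/2J (log2 difference -2.21 ± 0.23, adjusted p = 5.58e-05). The lowest 4-week library of Tk1 stood above the highest 22-week one. Ribonucleotide reductase pairs a catalytic subunit, Rrm1, with the S-phase subunit Rrm2. Rrm2 averaged 10.3 ± 2.11 CPM in 22-week BPH/2J, 39.8 ± 6.54 in 4-week BPH/2J and 9.73 ± 2.18 in BPN/3J (log2 difference -1.95 ± 0.18), and Rrm1 47.9 ± 2.85 CPM in 22-week BPH/2J, 83.0 ± 3.70 in 4-week BPH/2J and 45.5 ± 1.81 in BPN/3J (log2 difference -0.79 ± 0.06). Among companion genes of the pathway, the subunit and the kinase that serve resting cells and mitochondria were higher at 22 weeks. Rrm2b, the p53-induced form of the small subunit, averaged 52.9 ± 6.03 CPM in 22-week BPH/2J, against 35.5 ± 1.92 in 4-week BPH/2J (log2 difference 0.58 ± 0.08, adjusted p = 0.00043). Tk2, the mitochondrial thymidine kinase, averaged 29.6 ± 0.976 CPM in 22-week BPH/2J, against 14.5 ± 2.18 in 4-week BPH/2J (log2 difference 1.03 ± 0.10, adjusted p = 5.01e-05). For both genes the ages did not overlap, and they were the pair with the smallest adjusted p among the 9 companion genes that were higher with age.

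At the fork, Clspn, the adaptor that carries checkpoint signals to CHK1, was called with age and its partners were not. Clspn had 2.496, 5.31 and 2.51 CPM in 22-week BPH/2J, against 21.4, 15.2 and 19.1 CPM in 4-week BPH/2J (log2 difference -2.43 ± 0.28, adjusted p = 0.000102), with no overlap. Timeless had 143, 160.3 and 135 CPM in 22-week BPH/2J, 129.5, 159 and 141 CPM in 4-week BPH/2J and 193, 190.4 and 207 CPM in BPN/3J. Its BPH/2J libraries of both ages overlapped (log2 difference 0.03 ± 0.09, adjusted p = 0.815), and all of them lay below the BPN/3J libraries. Tipin, which binds TIMELESS, had 21.4, 22.4 and 22.8 CPM in 22-week BPH/2J, 27.6, 20.1 and 23.4 CPM in 4-week BPH/2J and 15.6, 14.7 and 12.7 CPM in BPN/3J, with overlapping ages (log2 difference -0.09 ± 0.12, adjusted p = 0.545) and BPN/3J below both.

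Genes that rebuild chromatin behind the fork were lower at 22 weeks in all 4 cases, with a median of -1.61. Uhrf1, which recognises hemimethylated DNA and recruits DNMT1, had 6.52, 13.5 and 8.24 CPM in 22-week BPH/2J, 67.2, 64.1 and 77.7 CPM in 4-week BPH/2J and 8.54, 7.22 and 9.12 CPM in BPN/3J. The 4-week libraries stood 7.398-fold above those of 22-week BPH/2J (log2 difference -2.89 ± 0.21, adjusted p = 1.45e-05), and the 22-week groups overlapped. Dnmt1, the maintenance methyltransferase, averaged 89.6 ± 6.17 CPM in 22-week BPH/2J, 161 ± 10.2 in 4-week BPH/2J and 88.7 ± 3.88 in BPN/3J (log2 difference -0.84 ± 0.07). Chaf1b, a subunit of the histone chaperone CAF-1, averaged 4.84 ± 0.881 CPM in 22-week BPH/2J, against 12.4 ± 3.16 in 4-week BPH/2J (log2 difference -1.36 ± 0.19, adjusted p = 0.000342). Chaf1a, its large subunit, averaged 5.72 ± 1.52 CPM in 22-week BPH/2J, against 20.7 ± 2.39 in 4-week BPH/2J (log2 difference -1.85 ± 0.18). Exons of Chaf1a overlap those of Ubxn6 on the other strand over 52.5% of their length, and Ubxn6 averaged 63.6 CPM, so its level carries the same uncertainty as that of Gins2. E2f1, a transcription factor of the S-phase programme, had 4.73, 8.01 and 4.73 CPM in 22-week BPH/2J, 28.2, 21.6 and 24.6 CPM in 4-week BPH/2J and 4.35, 3.20 and 5.61 CPM in BPN/3J. Its 4-week libraries stood 4.25-fold above those of 22-week BPH/2J (log2 difference -2.09 ± 0.23, adjusted p = 7.6e-05).

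The age difference varied with the abundance of a member. Across the 47 members, the log2 age difference was set against the log2 RPKM in BPN/3J. The Spearman correlation was 0.70 and the Pearson correlation 0.72. The BPN/3J libraries are outside the age comparison but share the fitted model and the age of 22 weeks. Members had similar levels in both 22-week groups, with a median log2 difference of 0.17. A member low in BPN/3J was thus mostly low in 22-week BPH/2J too, so the correlation is not independent of the age difference. These are correlations across genes measured in the same libraries, given as a description. In order of RPKM in BPN/3J, the highest members were Pcna, Timeless, Pola2 and Rfc2, at 55.1 ± 3.33, 32.2 ± 1.42, 29.5 ± 2.35 and 19.6 ± 1.04 RPKM. The 5 members not called with age ranked 2, 3, 4, 8 and 13 of 47. The lowest was Ticrr, at 0.0653 ± 0.0154 RPKM. Mcm6 and Uhrf1 had larger differences than members of like level.

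**Figure D3:**
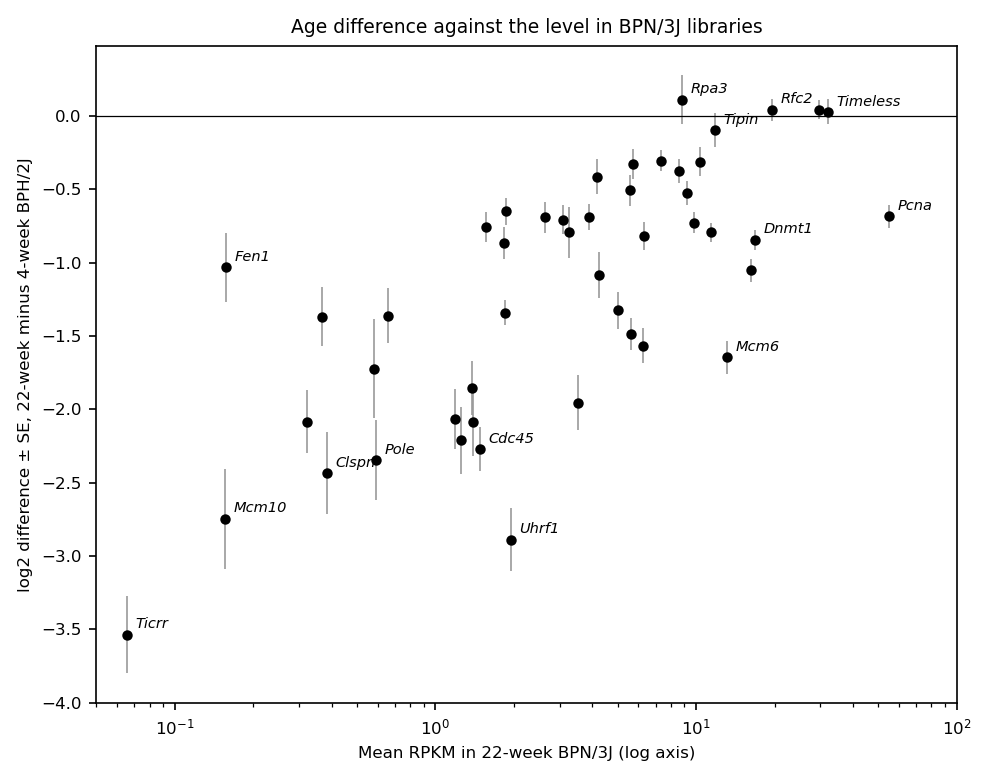
Log2 difference ± SE between 22-week and 4-week BPH/2J of the 47 replication genes against their mean RPKM in 22-week BPN/3J (log axis). The most negative differences are those of Ticrr, Uhrf1 and Mcm10, at 0.0653, 1.95 and 0.156 RPKM, while Fen1 at 0.157 RPKM lies at -1.03. Timeless, Rfc2, Rpa3 and Tipin lie at 0 within about their SE.

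Between the lines at 22 weeks the replication genes differed little as a set and individually in both directions. In 22-week BPH/2J, 11 members were higher and 3 lower than in BPN/3J, and 33 were not called. That is 29.8% of members, against 38.0% of all tested genes (19.8% higher and 18.2% lower), so the members were not called more often than genes at large. Their median log2 difference was 0.17, with quartiles of 0.00 and 0.35, against 0.02 over all genes. All 3 BPH/2J libraries lay above all BPN/3J libraries for 17 members and below for 7, where 29.3% and 26.4% of all genes did so (55.7% in all). A false discovery rate of 0.05 was passed by 15 members in the authors' deposited table, the same 14 and Chaf1b. Both comparisons of 22-week BPH/2J share the same 3 libraries.

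Mcm6, Cdc6 and Timeless were the members lower in 22-week BPH/2J. Mcm6 averaged 27.9 ± 4.52 CPM in 22-week BPH/2J and 57.5 ± 3.90 in BPN/3J, 2.06-fold lower in BPH/2J (log2 difference -1.04 ± 0.11, adjusted p = 6.79e-05), and was called in every alternative fit. In the same libraries Mcm2, Mcm4 and Mcm5 were higher in BPH/2J by 0.35 ± 0.11, 0.29 ± 0.07 and 0.34 ± 0.12 on the log2 scale, and Mcm3 and Mcm7 were not called, at -0.02 ± 0.08 and 0.20 ± 0.10. Among the 4 called subunits Mcm6 was the only one below its BPN/3J level. Timeless averaged 146 ± 13.04 CPM in 22-week BPH/2J and 197 ± 8.66 in BPN/3J (log2 difference -0.43 ± 0.09, adjusted p = 0.00318). Its partner Tipin went the other way, at 22.2 ± 0.740 CPM in 22-week BPH/2J and 14.3 ± 1.49 in BPN/3J (log2 difference 0.63 ± 0.12, adjusted p = 0.00218). Cdc6 averaged 3.78 ± 1.03 CPM in 22-week BPH/2J and 6.19 ± 1.03 in BPN/3J (log2 difference -0.71 ± 0.21, adjusted p = 0.0224), but its call was lost without replicate 1 or 3 of 22-week BPH/2J or of BPN/3J, at adjusted p between 0.0652 and 0.0839.

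The members higher in 22-week BPH/2J were led by single subunits of larger complexes. Pold2 had 16.7, 16.7 and 16.0 CPM in 22-week BPH/2J, against 10.8, 12.1 and 9.54 CPM in BPN/3J (log2 difference 0.61 ± 0.11, adjusted p = 0.00143). Prim2 had 10.2, 9.71 and 9.69 CPM in 22-week BPH/2J, against 6.75, 7.398 and 5.93 CPM in BPN/3J (log2 difference 0.56 ± 0.10, adjusted p = 0.00184). Neither gene had a BPN/3J library within the range of 22-week BPH/2J. Their partners Pold1 and Prim1 were not called, at -0.13 ± 0.08 and -0.15 ± 0.09 on the log2 scale. Rfc2, Rfc3 and Rpa1 were higher by 0.29 ± 0.07, 0.36 ± 0.10 and 0.32 ± 0.07, and Pole2 by 0.37 ± 0.13. Chaf1a was called at adjusted p = 0.0498 although its groups overlapped, and Mcm5 at adjusted p = 0.04996, by edgeR. The calls of Mcm2, Mcm5, Pole2 and Chaf1a did not hold in all fits. Leaving out BPN/3J replicate 2 or 3 left 7 members higher, and leaving out 4-week BPH/2J replicate 1, which enters only through the shared dispersion and scaling, gave 15. Without 22-week BPH/2J replicate 2 the members' median was 0.0285, and without replicate 1 it was 0.26. None of the 7 helicase activation genes or the 4 deoxynucleotide genes was called by DESeq2, limma-voom or edgeR with TMM scaling on all 9 libraries, and 1 of each group had an unadjusted edgeR p under 0.05. By edgeR, Tyms was called with upper-quartile scaling, without BPN/3J replicate 1 and without 4-week BPH/2J replicate 1, and Gins2 was called without 4-week BPH/2J replicate 1.

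**Figure D4:**
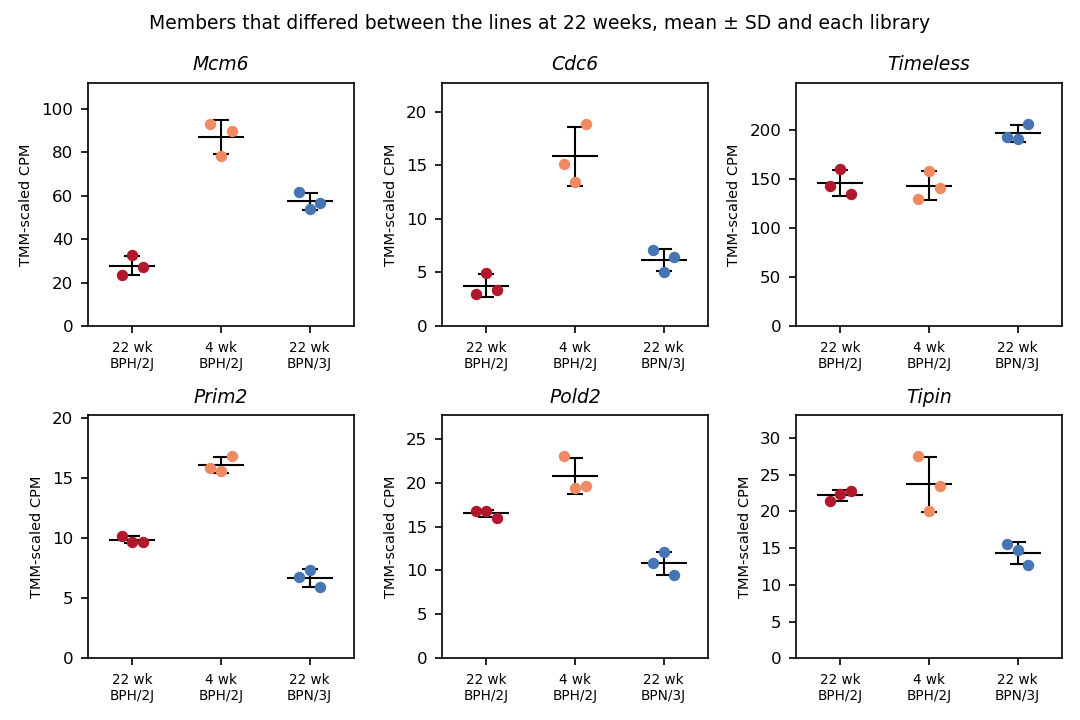
Scaled CPM of 6 replication genes in each library, with the mean and SD of each group of 3. Mcm6, Cdc6 and Timeless are lower in 22-week BPH/2J than in BPN/3J, and Prim2, Pold2 and Tipin are higher, and in each panel the 22-week groups do not overlap.

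**Figure D5:**
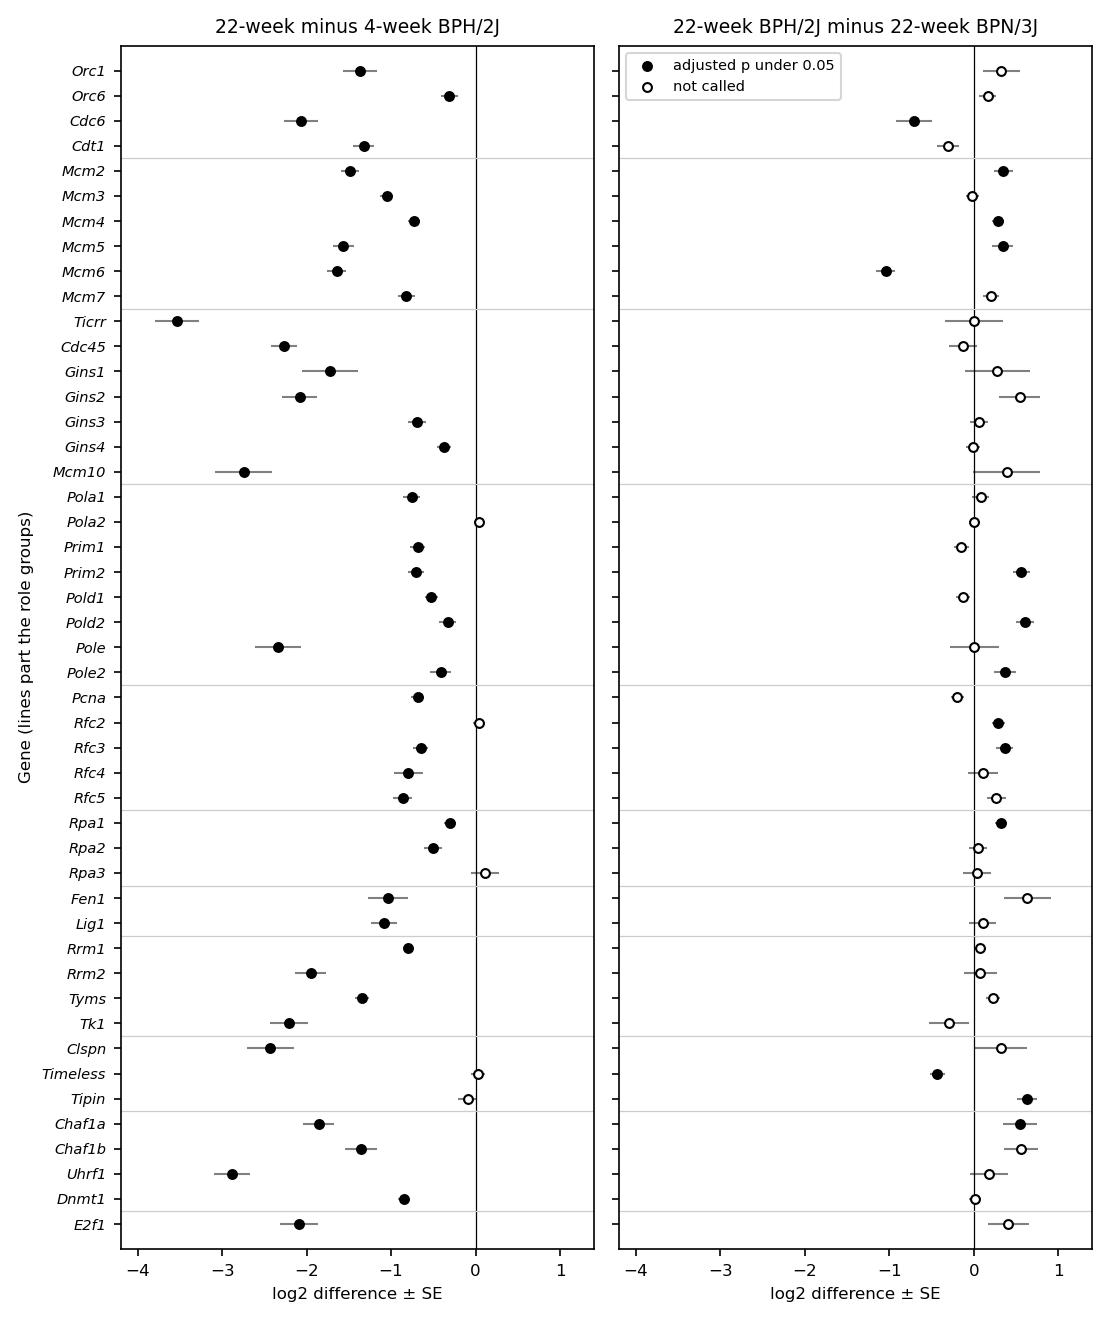
Log2 difference ± SE of the 47 replication genes between 22-week and 4-week BPH/2J (left) and between 22-week BPH/2J and 22-week BPN/3J (right), with filled points at adjusted p under 0.05. On the left 42 genes are filled and all of these are below 0, while on the right 14 are filled, 11 above and 3 below 0.

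The 4-week BPH/2J libraries also stood above the 22-week BPN/3J libraries. In this comparison, which differs in both line and age and shares the 4-week libraries with the age comparison, 44 members were higher and 1 lower. Among all tested genes 53.1% were called, 27.8% higher and 25.3% lower. The groups did not overlap for 44 members above and 1 below, against 30.5% and 28.7% of all genes (59.2% in all). The members' median log2 difference was 1.02, with quartiles of 0.68 and 1.92, and that of all genes was 0.00. The authors' deposited table passed the same 45 members. Ticrr differed by 3.54 ± 0.27 on the log2 scale, Uhrf1 by 3.07 ± 0.22 and Tyms by 1.57 ± 0.09. Timeless was the lower member (log2 difference -0.46 ± 0.09, adjusted p = 0.00119). Pola2 and Rpa3 were not called, at -0.04 ± 0.06 and -0.07 ± 0.17. Mcm6 was higher by 0.60 ± 0.11 (1.52-fold, adjusted p = 0.000966), the smallest of the 6 MCM subunits, whereas Mcm5 was higher by 1.91 ± 0.12. Rfc2 was higher by 0.25 ± 0.07, a call lost without BPN/3J replicate 2 (adjusted p = 0.0616).

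Another 84 genes of DNA replication and S phase were taken as companions, of which 83 had a row and all 83 were tested. With age 56 were lower, 9 higher and 18 not called, where 21.1% of all tested genes were lower and 19.9% higher. Their median log2 difference was -0.65. Hells, a chromatin remodeller of dividing cells, averaged 5.47 ± 1.71 CPM in 22-week BPH/2J, against 25.8 ± 1.59 in 4-week BPH/2J (log2 difference -2.24 ± 0.18, adjusted p = 1.98e-05). Atad2, a chromatin-bound ATPase, averaged 36.5 ± 3.41 CPM in 22-week BPH/2J, against 83.2 ± 9.28 in 4-week BPH/2J (log2 difference -1.19 ± 0.09, adjusted p = 1.55e-05). Among 19 genes of cyclins, CDK2 and the RB-E2F circuit, 15 were lower, 3 higher and 1 not called. Between the lines at 22 weeks 12 companions were higher, 11 lower and 60 not called, which is 27.7% called against 38.0% of all genes. Dna2, a nuclease-helicase of fragment processing, had 4.54, 5.05 and 3.96 CPM in 22-week BPH/2J, 11.8, 11.4 and 13.3 CPM in 4-week BPH/2J and 0.472, 0.660 and 0.807 CPM in BPN/3J. All BPH/2J libraries lay above all BPN/3J libraries. By edgeR, 22-week BPH/2J was above 22-week BPN/3J by log2 difference 2.80 ± 0.20 (adjusted p = 3.6e-06). The 4-week BPH/2J libraries were above 22-week BPN/3J by log2 difference 4.23 ± 0.19 (adjusted p = 9.89e-08), where line and age both differ. Top2b, a topoisomerase of resting and dividing cells, averaged 262 ± 9.34 CPM in 22-week BPH/2J and 192 ± 3.21 in BPN/3J (log2 difference 0.45 ± 0.05, adjusted p = 0.000147). Donson, a factor of helicase assembly, averaged 11.9 ± 0.651 CPM in 22-week BPH/2J and 22.0 ± 2.68 in BPN/3J (log2 difference -0.89 ± 0.10, adjusted p = 0.000104). Top1, which relaxes supercoils ahead of the fork, averaged 93.3 ± 3.45 CPM in 22-week BPH/2J and 128 ± 0.289 in BPN/3J (log2 difference -0.46 ± 0.05, adjusted p = 0.000105). In 4-week BPH/2J against BPN/3J, 57 companions were higher, 9 lower and 17 not called, where 27.8% of all tested genes were higher and 25.3% lower. Tfdp1, the dimer partner of E2F proteins, averaged 73.3 ± 4.32 CPM in 4-week BPH/2J and 27.4 ± 1.77 in BPN/3J (log2 difference 1.42 ± 0.09, adjusted p = 1.35e-06). Rbl2, a retinoblastoma-family protein of resting cells, averaged 30.4 ± 1.45 CPM in 4-week BPH/2J and 47.5 ± 2.95 in BPN/3J (log2 difference -0.64 ± 0.07, adjusted p = 4.07e-05). Donson was again the lower one in BPH/2J, at 12.1 ± 0.671 CPM in 4-week BPH/2J (log2 difference -0.87 ± 0.10, adjusted p = 5.35e-05).

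Markers of another cell type moved with age as well. Marker counts are to be read beside the share of all tested genes called. That share was 41.0% with age, 38.0% between the lines at 22 weeks and 53.1% in 4-week BPH/2J against BPN/3J. With age, 91.7% of the macrophage and monocyte markers and 50% of the endothelial markers were called. Of 12 macrophage and monocyte markers, led in abundance by Lyz2, 11 were lower in 22-week than in 4-week BPH/2J and 1 was not called. Their summed level was 227 to 263 CPM in 22-week BPH/2J, 443 to 864 CPM in 4-week BPH/2J and 399 to 684 CPM in BPN/3J, and none of them was at 0 in every library. Their part in the age difference of the replication genes was not tested. Of 12 endothelial markers, 5 were higher and 1 lower with age. Of 10 lymphocyte markers, led by Cd79a, 9 were tested and 6 were higher with age, at summed levels of 42.7 to 90.2 CPM in 22-week BPH/2J, 31.6 to 48.0 CPM in 4-week BPH/2J and 38.8 to 45.4 CPM in BPN/3J. Of 13 cardiomyocyte markers, led by Mb, 2 were higher with age. Against BPN/3J at 22 weeks, 9 cardiomyocyte markers were lower in BPH/2J, with sums of 539 to 652 CPM in 22-week BPH/2J, 405 to 658 CPM in 4-week BPH/2J and 916 to 1129.7 CPM in BPN/3J, and 10 macrophage and 4 of 7 erythroid markers were lower as well. Of the 12 endothelial markers, 6 were higher and 2 lower in that comparison, of the 9 fibroblast markers 1 was higher and 3 lower, and of the lymphocyte markers 2 were higher and 1 lower. The other lists had at most 1 marker called there. The part of these in the line differences of Mcm6, Cdc6, Timeless and the other called members was not tested. Fibroblast markers, led by Gsn, were mixed, with 3 of 9 higher and 3 lower with age. Among pericyte and smooth muscle markers, led by Rgs5, 2 of 9 were lower with age. Of 6 granulocyte and mast cell markers, led by Kit, 5 were tested, and 2 were higher and 3 lower with age. Of 7 erythroid markers, led by Hbb-bs, 5 were tested and 1 was lower with age. None of 4 lymphatic endothelial markers, led by Flt4, was called with age by edgeR or had an unadjusted p under 0.05. Of 5 epicardial and glial markers, led by Wt1, 4 were tested and 1 was lower with age. In 4-week BPH/2J against BPN/3J, 11 of 13 cardiomyocyte markers were lower. In that comparison 3 fibroblast markers were higher and 4 lower, 3 endothelial markers were higher and 3 lower, and 3 pericyte and smooth muscle markers were higher. Of the granulocyte and mast cell markers 3 were higher and 2 lower, of the lymphocyte markers 1 was higher and 2 lower, and 3 erythroid markers were lower. A single macrophage marker and a single lymphatic endothelial marker were higher, and no epicardial or glial marker was called by edgeR or had an unadjusted p under 0.05. Their part in the differences of the replication genes was not tested.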

How the data were processed

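PolyA RNA was sequenced as 100-cycle single reads, per the labels' protocols. The tools listed in the submitters' processing notes are edgeR, featureCounts (Subread), Bowtie2, TopHat2 2.0.13, FastQC and CASAVA 1.8.2, and the build is mm9. Their roles and settings, the strandedness and the annotation are not given in the sources read here. The authors deposited 1 table with raw counts per gene for 9 libraries, and the smallest gene total in it was 10. It also held CPM, which the authors computed from each column total, and the authors' own log2 fold changes and p-values with false discovery rates, made with a model that no source describes. Gene lengths deposited by the authors gave RPKM.

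Genes were filtered with filterByExpr, which left 15277, and libraries were scaled with TMM, the trimmed mean of M values. A quasi-likelihood model of group was fitted to all 9 libraries at once in edgeR 4.0.16 with its legacy default, and each of 3 contrasts was tested two-sided with Benjamini-Hochberg correction across every tested gene at 0.05. The SE of a log2 difference was its size over the square root of F. Printed CPM carry the TMM scaling. Promoters and gene overlaps came from GRCm38 references, a later build than mm9, and no coordinate was carried between builds.

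The 47 members, the companion genes and the marker lists were chosen with earlier results of these data known. A gene of the marker lists is not reported here. By rule, tests were printed for the members with the smallest and largest adjusted p of each role group, for those called against most others, and for the 2 companions with the smallest adjusted p per direction. Other members given with a difference were chosen after their values were seen. The alternatives were other scalings and filters, DESeq2 1.42.0, limma-voom (limma 3.58.1), a fit without the legacy default, fits on only the groups compared, a replicate block, a threshold of 0.01 and leaving out each library. The fit was tested on simulated data. Software was R 4.3.3, Python 3.11.15 and matplotlib 3.10.9.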

Additional observations from a re-analysis of the deposited data

How the results depend on the processing

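The 42 members lower with age were the same 42 under both other scalings, both other filters, DESeq2, limma-voom, the fit without the legacy default and the fit on only the groups compared. A threshold of 0.01 left 39. Leaving out 1 library gave 39 to 42 lower and 0 higher, with a median log2 difference of -0.97 to -0.82. In 4-week BPH/2J against BPN/3J, leaving out 1 library gave 43 to 44 higher and 1 lower, with a median of 0.98 to 1.09. Between the lines at 22 weeks the higher count was less firm: 4 at a threshold of 0.01, 8 with limma-voom, 12 with DESeq2, and 7 to 15 when 1 library was left out, against 2 to 4 lower and a median of 0.0285 to 0.26. The cause was not tested. Among members not called with age, leaving out 1 library moved the log2 difference of Rfc2 between -0.0235 and 0.10, of Rpa3 between -0.021 and 0.32 and of Timeless between -0.0382 and 0.11. The signs turned without 4-week BPH/2J replicate 2 for Rfc2 and Rpa3, and for Timeless without 22-week BPH/2J replicate 2 or without 4-week BPH/2J replicate 1 (-0.0348). Libraries with equal replicate numbers had residual correlations of -0.20 to 0.10, and those with unequal numbers -0.17 to 0.17. The labels do not say what the numbers mean. With 3 libraries per group these correlations cannot tell whether equal numbers mark a shared preparation or run. With the replicate number as a block, 42 members were lower with age, 12 were called between the lines at 22 weeks (9 higher and 3 lower, without Mcm5 and Chaf1a) and 44 were higher in 4-week BPH/2J than in BPN/3J. The block medians were -0.86, 0.16 and 1.02. Counts were low for Fen1, at 9 to 14 per BPN/3J library, and for Ticrr, at 10 to 16.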

Other observations

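Within the RB-E2F circuit, genes chosen after their values were seen moved in both directions with age, by edgeR's quasi-likelihood test. E2f8, an E2F repressor induced in S phase, averaged 1.02 CPM in 22-week BPH/2J and 10.9 CPM in 4-week BPH/2J (log2 difference -3.41 ± 0.37, adjusted p = 7.4e-05). Ccna2, the S-phase cyclin A2, averaged 5.40 CPM in 22-week BPH/2J and 44.9 CPM in 4-week BPH/2J (-3.05 ± 0.27, adjusted p = 2.52e-05). Rbl2, Rb1 and Tfdp2 were higher at 22 weeks, with log2 differences of 0.32 ± 0.07, 0.19 ± 0.07 and 0.31 ± 0.07. Rb1 and Rbl2 were both lower in 22-week BPH/2J than in BPN/3J, with log2 differences of -0.29 ± 0.07 and -0.32 ± 0.07, and E2f7 was lower too, at 16.3 CPM in 22-week BPH/2J and 25.6 CPM in BPN/3J.

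Within the origin recognition complex, Orc1 was lower with age at a log2 difference of -1.37 ± 0.20, while the companion subunits Orc2 and Orc5 were not called, at -0.09 ± 0.07 and 0.03 ± 0.07, Orc4 was lower at -0.23 ± 0.08, and Orc3 was higher at 0.17 ± 0.06.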
